A study of Mus musculus with 5 samples.

Results

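Cytosolic ribosomal protein genes encode the proteins that, with ribosomal RNA, build the large and small subunits of the cytoplasmic ribosome. They were taken here as the symbols beginning with Rpl or Rps, or the stalk names Rplp0 to Rplp2 and Rpsa, that follow the standard numbering and had at least 1000 UMIs (unique molecules) over 5 droplet libraries. Of 55450 annotated genes, 89 had such a symbol and 85 reached the minimum. They comprise 45 large-subunit names, 33 small-subunit names, 3 stalk proteins and 4 paralogs, Rps27l, Rpl22l1, Rpl7l1 and Rps4l. The annotation calls 80 of them protein coding, and Rpl32l, Rpl6l, Rps3a2, Rps3a3 and Rps4l processed pseudogenes. The members just inside the minimum were Rpl32l with 1509 UMIs and Rps3a3 with 2042, and those just outside were Rpl3l with 358 and Rps12l1 with 181.

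The libraries hold single-cell 3′ RNA of wild-type Balb/C mice aged 8 to 12 weeks, from bone marrow enriched for c-Kit and sorted as lineage negative and c-Kit positive. Granulocyte-monocyte progenitors (GMP, Sca-1 negative, CD34 positive, CD16/32 high) have 3 libraries. Common myeloid progenitors (CMP, Sca-1 negative, CD34 positive, CD16/32 low) have 1 library, and lymphoid-primed multipotent progenitors (LMPP, positive for Sca-1, CD34 and Flt3) have 1. Neither the number of mice behind each library nor whether GMP replicates are different animals is given, so their spread may be technical. The kept cells numbered 8429, 9016 and 7334 in the GMP libraries, 6880 in CMP and 7511 in LMPP, with 80008662 to 118226428 UMIs per library. Any pair of libraries shared 12 to 27 cell barcodes.

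Marker lists set the sorted types apart to unlike degrees. The 6 granulo-monocytic genes led by Mpo and Elane summed to between 31716 and 35592 UMIs per 1000000 UMIs of the library (CPM) in GMP. They summed to 3720 CPM in CMP and 2623 in LMPP. Lymphoid-primed markers summed to 663 CPM in LMPP, 606 in CMP and between 121 and 148 in GMP, so they set LMPP little apart from CMP. Stem cell markers summed to between 31.3 and 39.0 CPM in GMP, 267 in CMP and 1148 in LMPP. Neutrophil markers summed to 2186 CPM in LMPP, with 395 to 455 in GMP and 42.2 in CMP. Immediate early and heat shock genes summed to 2462 ± 462 CPM in GMP (SD, n = 3), 7789 in CMP and 11550 in LMPP, and their part in the results below was not tested.

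Ribosomal proteins are made in near-equal numbers, since a ribosome holds a single copy of almost every one of them. Their mRNAs typically begin with a run of pyrimidines, the terminal oligopyrimidine tract, through which the mTOR pathway controls their translation. Some have paralogs: Rps27l is a p53 target gene beside Rps27, a zinc finger protein of the small subunit, and Rpl22l1 can replace Rpl22, a large-subunit protein with known roles in lymphocyte development. Loss of single members such as Rps19 impairs red cell production in Diamond-Blackfan anaemia.

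The sequences below show the start sites of members whose levels are described, because the pyrimidine tract is the feature that these mRNAs share and that did not enter the choice of members. Each is 30 bases of the RefSeq table for GRCm38.p6, read along the gene's strand, with 15 bases before the annotated start and 15 from it. Capitals mark the run of C and T that covers the start or lies nearest to it. Rps27 at chr3:90213634-90213663 (minus strand) and Rps27l at chr9:66946071-66946100 (plus strand) are parent and paralog, as are Rpl22 at chr4:152324421-152324450 (plus) and Rpl22l1 at chr3:28805493-28805522 (plus). Rpl35a at chr16:33056467-33056496 (plus), Rps9 at chr7:3704026-3704055 (plus), Rpl31 at chr1:39367836-39367865 (plus) and Rps12 at chr10:23787195-23787224 (minus) departed from the other members in at least 1 comparison.
Rps27: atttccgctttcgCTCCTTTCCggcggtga
Rps27l: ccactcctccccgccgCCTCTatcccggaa
Rpl22: cgctgcttctggaatgTTCCagctcccact
Rpl22l1: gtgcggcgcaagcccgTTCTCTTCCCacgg
Rpl35a: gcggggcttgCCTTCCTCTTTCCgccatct
Rps9: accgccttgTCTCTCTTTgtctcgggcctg
Rpl31: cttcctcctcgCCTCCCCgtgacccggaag
Rps12: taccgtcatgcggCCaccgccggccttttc

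A run of at least 7 C or T letters that covers the annotated start or begins within 3 bases of it was found in 25 of the 61 members with an entry (41.0%). Among all 27025 genes of the table it was found in 9.32%, and in 4 of 15 translation factors (26.7%). Rps27 and Rpl22l1 have such a run, with 9 and 10 letters, while the nearest run is 5 letters in Rps27l. Rpl22 has 2 starts in the table, and the longest run at either is 4 letters. The Rpl22 start printed lies far upstream of the gene start in the gene annotation, chr4:152325742. It may therefore not be the start of the mRNA counted here. Annotated starts may lie some bases from the start used in these cells, and the absence of a run in a window draws nothing about its mRNA.

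Members took about 1 in 3 UMIs in every library. Their share was 32.8%, 31.1% and 30.9% in GMP replicates 1, 2 and 3, with a mean of 31.6% ± 1.05 (SD, n = 3). It was 32.7% in CMP and 31.1% in LMPP, and counting error on each is under the last digit. The CMP and LMPP shares lay inside the range of the GMP libraries. CMP was above every GMP library when mitochondrial genes were left out of the total (33.09%, against at most 33.07% in GMP) and by the median over cells (33.4%, against at most 32.8%). Within a library the cells spread more widely than the library totals: the share ran from 25.6% at the 5th percentile to 36.5% at the 95th in GMP replicate 2, from 27.3% to 41.0% in CMP and from 24.5% to 40.7% in LMPP. With 3 libraries against 1, the smallest p an exact permutation test allows is 0.25, so the shares were not tested.

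**Figure D1:**
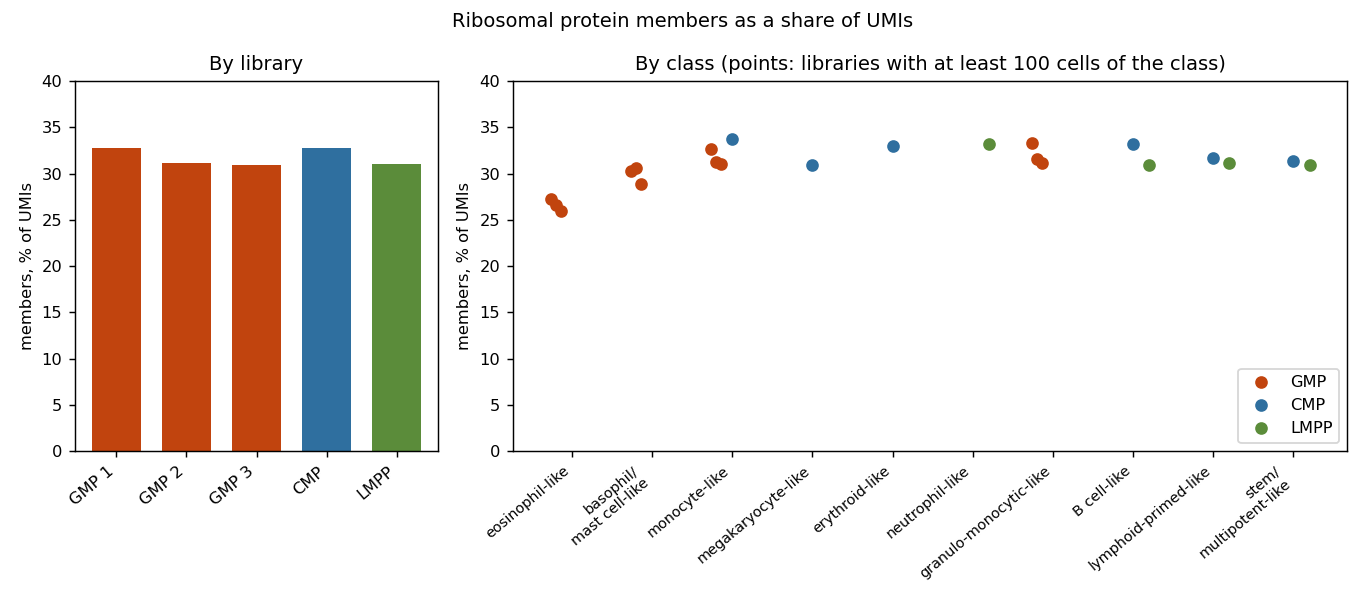
Share of UMIs in the 85 ribosomal protein genes (percent of UMIs, y axis), as bars for each library on the left and by class on the right, where a point is a library with at least 100 cells of the class. Library shares lie between 30.9% and 32.8%, while the eosinophil-like cells of GMP lie between 26.0% and 27.3%.

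The cells of each sorted group were clustered without the member genes and named from marker genes, and member levels were read from UMIs that the clustering did not use. Eosinophil-like cells had the lowest share among the named GMP classes with enough cells in every library, at 27.3%, 26.6% and 26.0% (mean 26.6% ± 0.65). These cells had medians of 2235, 2048 and 1590.0 UMIs in the part measured, against 5611, 6878 and 7963.5 in granulo-monocytic-like cells of the same libraries, and the part of depth in the lower share was not tested. Basophil and mast cell-like cells held 30.3%, 30.6% and 28.8% (29.9% ± 0.93). Monocyte-like cells held 31.6% ± 0.92 and granulo-monocytic-like cells 32.0% ± 1.14 (SD, n = 3 libraries each). In every GMP library the eosinophil-like share was below that of each other class named here. The granulo-monocytic-like share was above the monocyte-like share in each library, at 33.3% against 32.7%, 31.6% against 31.2% and 31.2% against 31.0%. These gaps were smaller than the spread between libraries.

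Within the basophil and mast cell-like class, the cluster led by Gzmb held 26.2% ± 1.19 and the cluster led by Prss34, a basophil protease, held 31.7% ± 0.34. The Gzmb-led cells had a median of 1907 UMIs in the part measured, against 4056 in the Prss34-led cells. In CMP, megakaryocyte-like cells held 30.9% and monocyte-like cells 33.7%, with stem and multipotent-like cells at 31.4%, lymphoid-primed-like cells at 31.7% and erythroid-like cells at 33.0%. In LMPP, neutrophil-like cells held 33.2% and stem and multipotent-like cells 30.9%. The stem and multipotent-like share joins unlike clusters. A cluster of 688 cells led by the proliferation gene Mki67 held 27.0% at a median of 10220.5 UMIs in the part measured, and a cluster of 1392 cells led by Hlf held 28.7% at 4537. Clusters of 1474 and 875 cells, with Wfdc17 and Hlf among their leading genes, held 35.9% and 37.1% at medians of 2610.5 and 3511. The remaining clusters of this class, of 1126, 827 and 81 cells, held 29.2%, 34.1% and 30.2% at medians of 6674.5, 5191 and 3803. The part of depth in these shares was not tested.

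The neutrophil-like cells of LMPP fell into clusters with far apart shares. A cluster of 29 cells led by Ngp, Camp and Ltf, the secondary granule genes of late neutrophil maturation, had 8.38% of its UMIs in members (exact 95% Clopper-Pearson interval 8.23 to 8.53). The cluster of 178 cells led by S100a9 and S100a8 had 35.3%. Camp, Ngp, S100a8 and S100a9 were among the leading genes of both clusters. Some other clusters with low shares had more mitochondrial UMIs than their libraries. An unnamed GMP cluster led by Cxcl10 and Mpeg1 held 22.9% ± 1.20 at 4.0% mitochondrial UMIs, an unnamed LMPP cluster led by Igkc and Jchain held 12.5% at 5.61%, and a CMP erythroid-like cluster of 61 cells held 18.7% at 5.49%. The mitochondrial share of whole libraries was 0.791% to 1.42%, and the part of cell quality in these shares was not tested.

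Because whole libraries hold nearly the same share in members, how each library is scaled decides whether the family as a whole appears to move. TMM factors, which equate the middle of the genes, were 0.853, 0.886 and 0.901 in GMP, 1.09 in CMP and 1.35 in LMPP. Members were therefore also scaled by total UMIs and by the summed UMIs of the members themselves (the ribosomal protein pool). Every test below is a quasi-likelihood test in edgeR whose p-values were adjusted over all genes by Benjamini-Hochberg, with a threshold of 0.05, and differences are log2 values. In the tests of GMP against CMP or LMPP, the 3 GMP libraries supply the only 2 residual degrees of freedom. The single CMP and LMPP libraries are there taken to have the same spread.

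Against CMP, 9 of 85 members were higher in GMP (background 13.6% of 19717 genes) and 1 was lower (background 19.0%) under TMM. The member median was 0.21, beside −0.04 over all genes. Among the higher members were Rps27l, Rps15, Rps12, Rps29 and Rps25 of the small-subunit names and Rpl31, Rpl10 and Rpl7l1 of the large-subunit names, and the lower one was Rpl32l. Scaling by total UMIs gave 2 higher (background 7.46%) and 11 lower (background 30.3%), with a member median of −0.09 and −0.33 over all genes. Scaling by the pool gave 5 higher (background 7.13%) and 7 lower (background 24.9%), with a member median of −0.05. Rps27l was higher and Rpl32l lower under all 3 scalings.

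Against LMPP, 52 members were higher in GMP (background 26.0%) and 1, Rpl32l, was lower (background 31.4%) under TMM, with a member median of 0.61 and −0.09 over all genes. Of the higher members 25 were of the large subunit, 23 of the small subunit, 2 of the stalk and 2 paralogs. With total UMIs 10 were higher (background 11.1%) and 14 lower (background 52.1%), and with the pool 10 were higher (background 10.0%) and 16 lower (background 51.0%). The member median was −0.01 with total UMIs and −0.04 with the pool. Under all 3 scalings 10 members passed as higher (among them Rps27l, Rps15, Rps12, Rpl31, Rpl7a, Rpl8, Rpl41, Rplp2 and Rpl7l1). Only Rpl32l passed as lower under all of them.

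**Figure D2:**
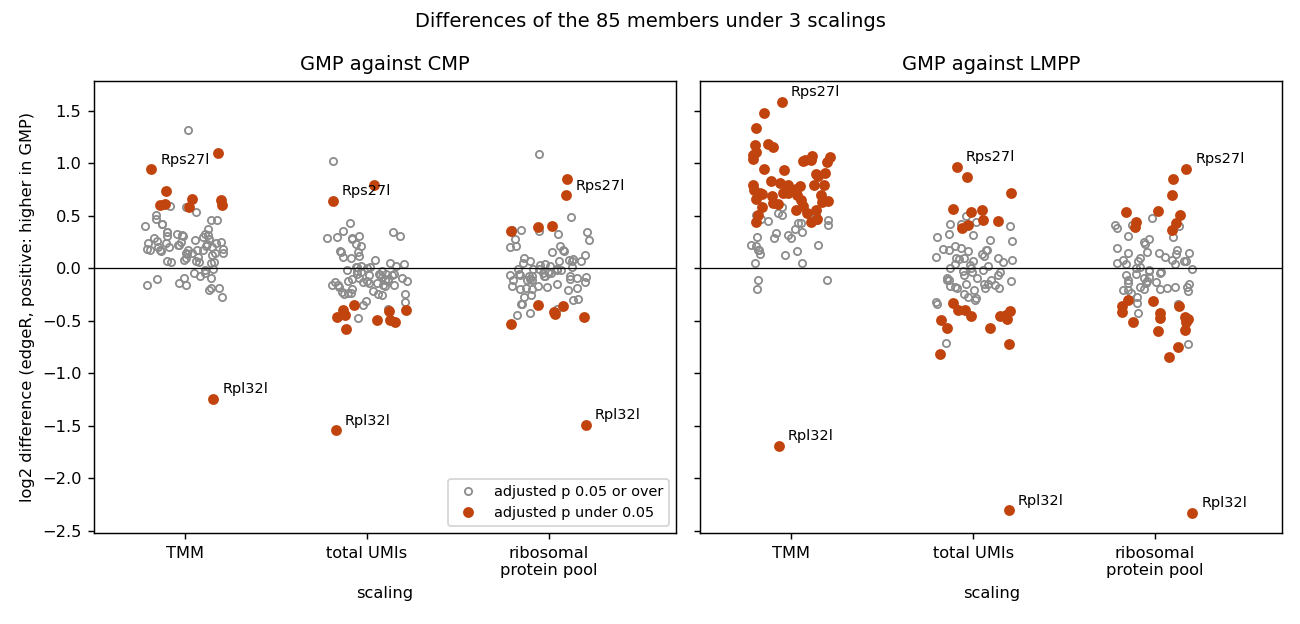
Log2 difference of the 85 members (y axis, positive where higher in GMP) under scaling by TMM, total UMIs and the ribosomal protein pool (x axis), for GMP against CMP on the left and GMP against LMPP on the right, with filled points for an adjusted p under 0.05. The member median against LMPP is 0.61 with TMM and −0.04 with the pool, while Rps27l lies above 0.6 in every column.

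Rps27l, the p53-responsive paralog of Rps27, had 672, 781 and 731 CPM in GMP replicates 1, 2 and 3, 466 CPM in CMP (exact 95% Poisson interval 461 to 471) and 372 CPM in LMPP (367.5 to 375.9). All GMP libraries lay above CMP, and CMP above LMPP. The difference from CMP was 0.95 ± 0.15 (SE, adjusted p = 0.00241), and 0.64 with total UMIs (adjusted p = 0.00822) and 0.70 with the pool (adjusted p = 0.0115). From LMPP it was 1.59 ± 0.15 (adjusted p = 0.00013), and 0.97 with total UMIs and 0.95 with the pool. These Poisson intervals cover counting error only, as do the others given here.

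Rps12, the most abundant member at a mean of 11134 CPM over the libraries, had 12772, 12199 and 12047 CPM in GMP, 9632 CPM in CMP and 9019 CPM in LMPP. UMIs are counted at the 3′ end and are not divided by transcript length. The GMP libraries did not overlap either of the other groups. The difference from CMP was 0.66 ± 0.18 (adjusted p = 0.0252), and it passed with the pool (0.41, adjusted p = 0.0184) and did not with total UMIs (adjusted p = 0.0573). Rpl31, a large-subunit protein near the exit of the peptide tunnel, had 1540.0, 1617 and 1536 CPM in GMP, 1233 in CMP and 1137 in LMPP. It differed from CMP by 0.65 ± 0.15 (adjusted p = 0.0127) and by 0.40 with the pool (adjusted p = 0.0399), and did not pass with total UMIs (adjusted p = 0.0583). Both calls against CMP rest on 3 GMP libraries: without GMP replicate 2 neither passed.

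Rps15 had 4900.1, 6736 and 6623 CPM in GMP, 4497 in CMP and 3700.1 in LMPP, and Rps29 had 7644, 7746 and 7694 in GMP, 6239 in CMP and 6716 in LMPP. Rps15 is a small-subunit protein near the decoding site, and Rps29 a zinc-binding protein of the small subunit. Rps15, Rps29, Rps25 and Rpl10 passed against CMP with TMM (log2 0.74, 0.61, 0.61 and 0.59) and did not with total UMIs (adjusted p = 0.118, 0.0873, 0.177 and 0.225). Rps25 in LMPP, at 2107 CPM, lay inside the GMP range of 1939 to 2470. Rpl7l1, a paralog of Rpl7, had 119, 119 and 120.0 CPM in GMP, 96.0 in CMP and 89.5 in LMPP, with differences of 0.62 ± 0.12 from CMP (adjusted p = 0.00741) and 1.03 from LMPP (adjusted p = 0.000375).

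A second set of members was lower in GMP once the scaling followed total UMIs or the pool. Rpl21 had 1721, 1549 and 1639 CPM in GMP, 2439 in CMP and 2292 in LMPP, Rps7 had 2574, 2403 and 2349 CPM in GMP, 3480.2 in CMP and 3214 in LMPP, and Rpl15 had 933, 939 and 1035 CPM in GMP, 1361 in CMP and 1362 in LMPP. None of the GMP libraries overlapped CMP or LMPP for these large-subunit (Rpl21, Rpl15) and small-subunit (Rps7) proteins. Against CMP, Rpl21 differed by −0.53 with the pool (adjusted p = 0.0089) and −0.58 with total UMIs (adjusted p = 0.00795), while with TMM the value was −0.27 (adjusted p = 0.214). Rplp0, Rps19 and Rpl13 also passed as lower against CMP with both of these scalings. In CPM, all 3 GMP libraries were above CMP for 18 members and below it for 35, beside 21.0% and 61.1% of 16016 genes. They were above LMPP for 28 and below it for 31, beside 22.7% and 67.8%.

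Rpl32l, a processed pseudogene of Rpl32, was the sole member that passed the threshold as lower in GMP under every scaling. It had 1.41, 1.22 and 1.42 CPM in GMP, from 136, 144 and 162 UMIs, against 3.96 CPM in CMP (3.54 to 4.42) and 6.74 CPM in LMPP (6.19 to 7.32). The difference was −1.24 ± 0.21 from CMP (adjusted p = 0.00373) and −1.69 ± 0.21 from LMPP (adjusted p = 0.000361). Its parent Rpl32 had 9652, 8929 and 8869.5 CPM in GMP, 9220.4 in CMP and 8115 in LMPP, and how many of its UMIs are misplaced reads of a parent copy was not tested. Within stem and multipotent-like cells it had 7.77 CPM in CMP, from 33 UMIs, and 7.0 in LMPP, from 238 UMIs.

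Paralog ratios do not depend on scaling. Rps27l UMIs per 100 Rps27 UMIs were 23.3, 26.9 and 24.9 in GMP (25.0 ± 1.83, SD, n = 3), 16.2 in CMP and 11.3 in LMPP. Rps27 itself had 2891, 2903 and 2930 CPM in GMP, 2875 in CMP and 3299 in LMPP, so the parent was nearly level in GMP and CMP and highest in LMPP. Of the 90-base stretches in the last 400 transcribed bases, 98.4% in Rps27 and 4.18% in Rps27l also occur in other transcripts, so the level of Rps27 is the less certain of the pair.

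The Rps27l ratio varied more between classes than between libraries of a class. In GMP it was 25.0, 29.2 and 26.5 in monocyte-like cells, 24.8, 27.6 and 25.7 in granulo-monocytic-like cells, 21.5, 21.0 and 17.7 in eosinophil-like cells and 14.7, 16.3 and 15.9 in basophil and mast cell-like cells. In CMP it was 26.5 in monocyte-like cells, 22.6 in megakaryocyte-like, 15.8 in lymphoid-primed-like, 13.5 in erythroid-like, 13.3 in B cell-like and 11.4 in stem and multipotent-like cells. In LMPP it was 22.6 in neutrophil-like cells, 12.6 in B cell-like cells, 10.1 in stem and multipotent-like cells and 5.53 in lymphoid-primed-like cells. Monocyte-like cells of CMP thus lay inside the GMP range for that class, and the monocyte-like and megakaryocyte-like classes of CMP and the neutrophil-like class of LMPP were above the stem, lymphoid and B cell-like classes of the same library.

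**Figure D3:**
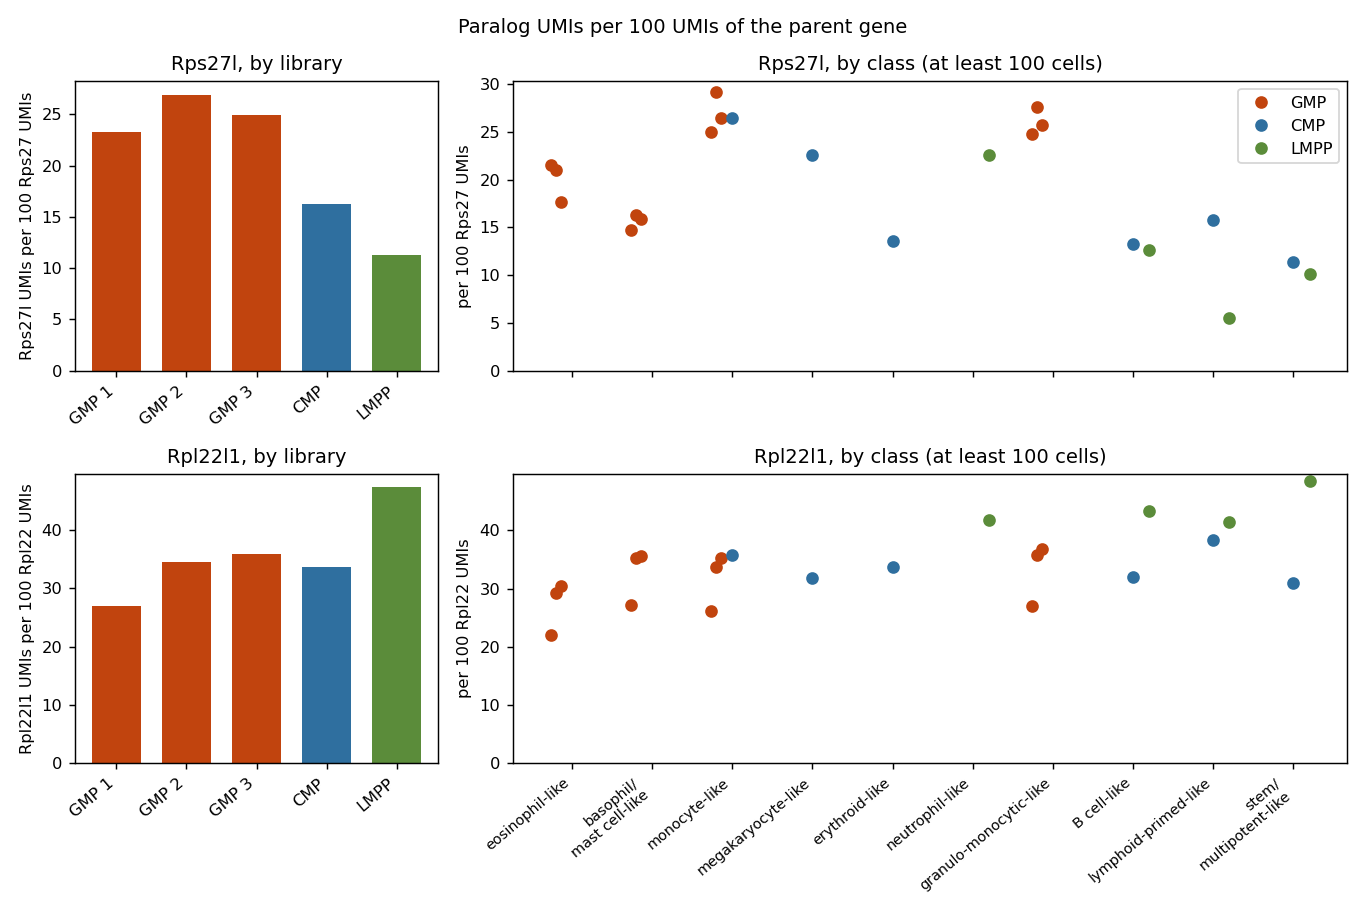
UMIs of a paralog per 100 UMIs of its parent gene (y axis), for Rps27l to Rps27 above and Rpl22l1 to Rpl22 below, as bars for libraries on the left and as points for libraries by class on the right. The Rps27l ratio is 14.7 to 16.3 in basophil and mast cell-like cells and 25.0 to 29.2 in monocyte-like cells of the 3 GMP libraries.

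Rpl22l1 took the reverse order among the groups. Its UMIs per 100 Rpl22 UMIs were 26.9, 34.5 and 35.9 in GMP (32.5 ± 4.83), 33.7 in CMP and 47.3 in LMPP. LMPP was above every other library, while CMP lay inside the GMP range. The LMPP classes held 41.4 to 48.4 and the CMP classes 30.9 to 38.3, so the groups did not overlap by class. Of the 90-base stretches described above, 41.8% in Rpl22l1 and 0.965% in Rpl22 also occur in other transcripts. The level of Rpl22l1 is thus the less certain of the pair. Rpl22l1 had 801, 939 and 965 CPM in GMP, 984 in CMP and 1228 in LMPP. It was lower in GMP than in LMPP with total UMIs (−0.45, adjusted p = 0.0241) and the pool (−0.47, adjusted p = 0.0332), but had a value of 0.17 with TMM (adjusted p = 0.348). Rpl7l1 per 100 Rpl7 UMIs was 9.84, 6.90 and 6.33 in GMP, 5.36 in CMP and 5.15 in LMPP, and the high value of GMP replicate 1 came with 1204 CPM of Rpl7 in it, against 1726 and 1897 in the other GMP libraries. Rps4l, with 3.46, 8.69 and 8.84 CPM in GMP, 3.44 in CMP and 11.5 in LMPP, differed by 1.32 ± 0.48 from CMP (adjusted p = 0.0705), and by 1.64 without GMP replicate 1 (adjusted p = 0.00171).

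Within GMP, classes were compared with the granulo-monocytic-like class in the same 3 libraries, with library as a block. Basophil and mast cell-like cells had 79 of 85 members lower (background 26.1% of 13403 genes) and 0 higher (background 25.0%) with TMM, at a member median of −0.43. With total UMIs 41 were lower (background 12.8%) and 10 higher (background 40.3%), and with the pool 24 were lower (background 9.93%) and 23 higher (background 45.0%). The same 24 were lower with all 3 scalings. Rps27l had 489 ± 40.8 CPM in basophil and mast cell-like cells and 767 ± 53.2 in granulo-monocytic-like cells (SD, n = 3 libraries), a difference of −0.99 ± 0.05 (adjusted p = 4.34e-67) and of −0.56 within the pool. Rps12, Rps25 and Rpl31 were lower by −0.79, −0.76 and −0.71, whereas Rps27 was at −0.25 with TMM and 0.09 with total UMIs.

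Eosinophil-like cells had 80 members lower (background 17.9%) and 0 higher (background 10.7%) with TMM, at a member median of −0.89. With total UMIs 66 were lower (background 5.62%) and 1 higher (background 29.4%), and with the pool 27 were lower (background 1.95%) and 21 higher (background 41.3%). Rps18, a small-subunit head protein, had 1369 ± 178 CPM in eosinophil-like cells and 2065 ± 165 in granulo-monocytic-like cells, and was lower under each scaling (−1.16, −0.59 and −0.32). Rps9, a small-subunit assembly protein, went the other way within the pool: it had 5900 ± 114 CPM in eosinophil-like cells and 4796 ± 107 in granulo-monocytic-like cells. Its difference was −0.27 with TMM (adjusted p = 1.01e-06), 0.30 with total UMIs and 0.57 with the pool (adjusted p = 5.85e-24). The eosinophil-like class rests on 145, 171 and 124 cells.

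Monocyte-like cells were closest to the granulo-monocytic-like class: 45 members were lower (background 19.7%) and 0 higher (background 16.3%) with TMM, at a member median of −0.12. With total UMIs 3 were lower (background 11.0%) and 4 higher (background 27.0%), and with the pool 2 were lower (background 9.51%) and 4 higher (background 28.0%). Rpl37a and Rps12 were lower under each scaling. Rpl37a, a zinc-binding large-subunit protein, had 4963 ± 398 CPM in monocyte-like and 5574 ± 516 in granulo-monocytic-like cells, a difference of −0.27 ± 0.05 (adjusted p = 9.09e-08). Without the library block 0 members were lower in monocyte-like cells, and leaving out 1 library gave 10 to 41. The share of all genes called under these settings is not given here, so these counts are not set against a background. Rps27l had 756 ± 68.5 CPM in monocyte-like cells and 767 ± 53.2 in granulo-monocytic-like cells.

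Over 22 combinations of class and library, the share of the pool taken by Rps27l went with that of Rpl31 (Pearson r = 0.89, on log2 values) and Rps12 (0.87). These points share libraries and their depth, and the values are a description. Rpl41, Rps16 and Rplp2 followed at 0.77, 0.76 and 0.76.

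CMP and LMPP, with 1 library each, were compared without a test, by folds past 1.5 among 14334 genes with enough UMIs. Of the members, 3 were higher in CMP (background 6.97%) and 4 lower (background 32.6%). The higher ones were Rpl7a and Rpl4, each at 1.54-fold, and the pseudogene Rps3a3 at 1.60-fold. Rpl7a had 2235 CPM in CMP (2225 to 2246) and 1451 in LMPP (1443 to 1459), and 83.3% of its 90-base stretches near the 3′ end are shared with other transcripts. Lower were Rps4l, Rpl32l, Rpl26 and Rpl35a, at 0.299, 0.588, 0.585 and 0.632 of the LMPP level. Rpl26, a large-subunit protein that in human cells also binds p53 mRNA, had 178 CPM in CMP (175 to 181) and 305 in LMPP (301 to 309), and Rpl35a, a Diamond-Blackfan gene of the large subunit, had 1222 in CMP (1214 to 1229.7) and 1934 in LMPP (1925 to 1944).

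Within matched classes, some members had a gap of like size in each class and others did not. Relative to the pool, Rpl26 was at −0.77 in stem and multipotent-like, −0.75 in lymphoid-primed-like and −0.81 in B cell-like cells of CMP against those of LMPP. Rpl35a was at −0.73, −0.69 and −0.75, and Rpl27 at −0.48, −0.47 and −0.52 in the same classes. GMP was low for these as well: Rpl35a had 1088, 1005 and 1196 CPM, Rpl26 had 165, 182 and 207, and Rpl27 had 652, 558 and 586 in GMP, against 1934, 305 and 889 in LMPP. Their differences between GMP and LMPP were −0.82, −0.72 and −0.57 with total UMIs (adjusted p = 0.00112, 0.00316 and 0.00591), while with TMM none passed (adjusted p = 0.283, 0.533 and 0.8). LMPP is a single library, so a property of the LMPP cells and a property of that library cannot be told apart.

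Rps27l, by contrast, was at 0.09 in stem and multipotent-like, 1.01 in lymphoid-primed-like and −0.08 in B cell-like cells of CMP against LMPP, also relative to the pool. In lymphoid-primed-like cells it had 445 CPM in CMP (429 to 461) and 217 in LMPP (186 to 250), and in stem and multipotent-like cells 362 in CMP (344 to 380) and 335 in LMPP (329 to 341). The lymphoid-primed-like class holds unlike cells in the 2 libraries: 865 cells of 3 clusters in CMP, 1 of them with cell cycle and histone genes among its leading genes, and 192 cells of 1 cluster in LMPP. Genes of the S and G2M phases summed to 3651 CPM in these CMP cells and 904 CPM in these LMPP cells, and their part in the gap was not tested. In monocyte-like cells it had 686 to 823 CPM over the GMP libraries and 670 in CMP (643 to 697), a gap of 0.27 relative to the pool, beside 0.70 for whole libraries. All GMP libraries were above CMP in this class, though the lowest, at 686 CPM, lay inside the counting interval of CMP. Per 100 Rps27 UMIs, CMP at 26.5 lay inside the GMP range of 25.0 to 29.2 for this class.

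**Figure D4:**
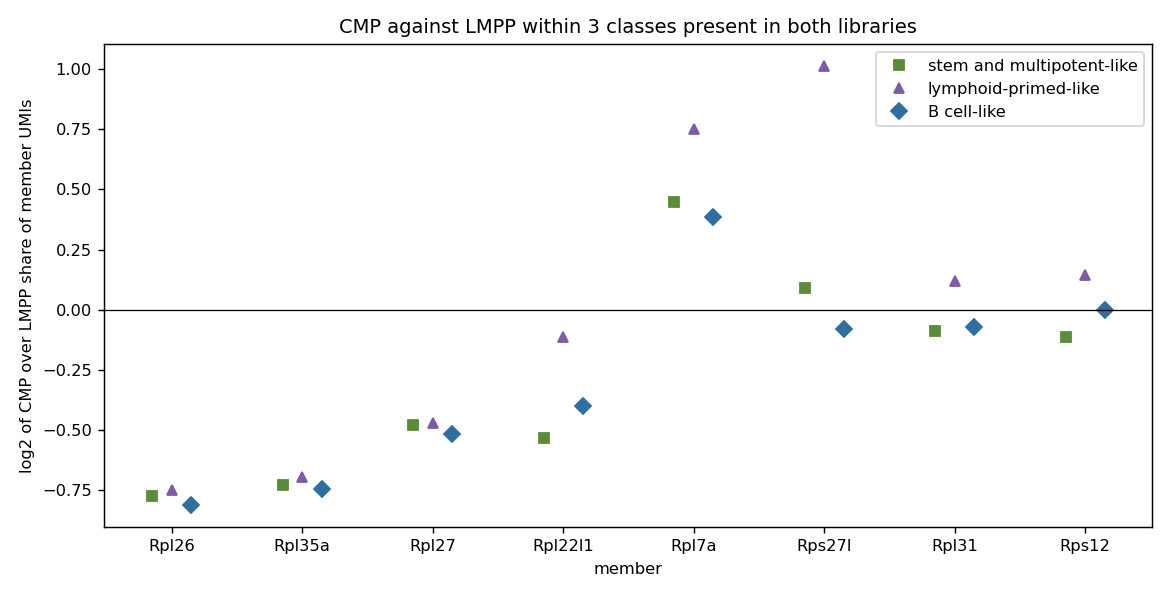
Log2 ratio of CMP to LMPP in the share of member UMIs (y axis) for 8 members (x axis) within 3 classes present in both libraries, 1 marker per class and without a test. Rpl26 and Rpl35a lie between −0.69 and −0.81 in each class, while Rps27l lies between −0.08 and 1.01.

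GMP replicate 1 stood apart in the makeup of the pool. Over the 80 protein-coding members, the SD of the log2 ratio of pool shares was 0.278 between GMP replicates 1 and 2 and 0.314 between replicates 1 and 3, but 0.0813 between replicates 2 and 3. The mean of GMP differed from CMP by an SD of 0.263. Rps6, the small-subunit target of S6 kinase, had 576 CPM in GMP replicate 1 and 1036 and 1212 in replicates 2 and 3, with 814 in CMP and 961 in LMPP. Other transcripts share 86.5% of the 90-base stretches near the 3′ end of Rps6, so its level is less certain. Rpl5, a component of the 5S particle that binds Mdm2, had 918 CPM in replicate 1 and 1576 and 1596 in replicates 2 and 3. Relative to the mean of the other GMP libraries, replicate 1 was lowest for Rps6 (−1.05), Rpl5 (−0.87), Rpl13a (−0.86) and Rpl12 (−0.74) and highest for Rpl37 (0.41) and Rps26 (0.40). Without it, 19 members were higher against CMP (background 21.7%) and 1 lower (background 24.6%), and Rps27l differed by 0.99 and Rpl32l by −1.28. Against LMPP, 59 were higher without it (background 31.3%) and 1 lower (background 36.0%). The mitochondrial share was 0.791% in replicate 1 and 1.30% and 1.40% in the other GMP libraries, and its part in the difference was not tested.

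**Figure D5:**
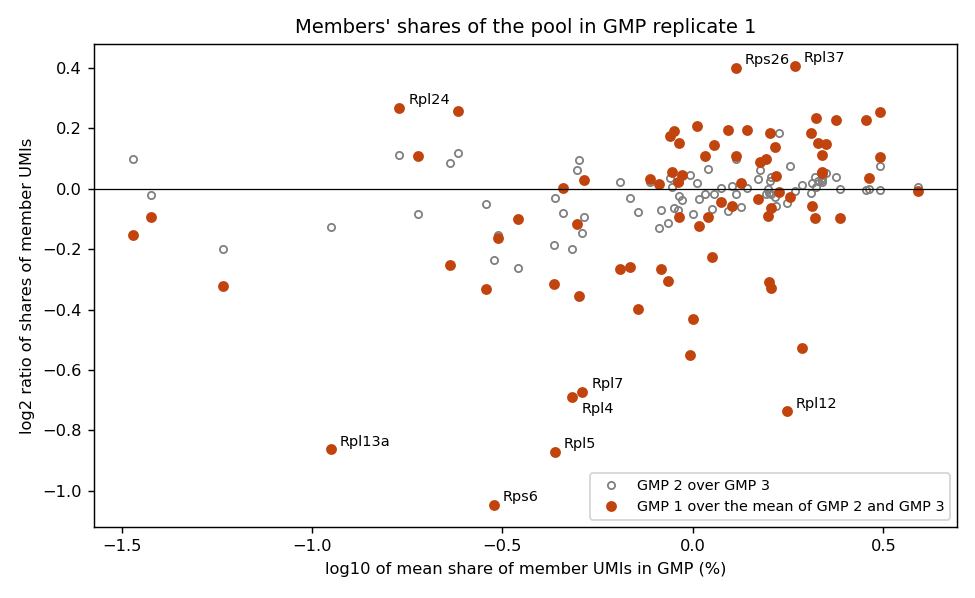
Log2 ratio of shares of member UMIs (y axis) against the log10 of the mean share in GMP in percent (x axis) for the 80 protein-coding members, with filled points for GMP replicate 1 over the mean of replicates 2 and 3 and open points for replicate 2 over replicate 3. Rps6 lies lowest at −1.05 and Rpl37 highest at 0.41 among the filled points.

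Other genes of translation and of the p53 response were counted as lists. Of 4 ribosomal protein genes outside the symbol pattern, such as Fau and Rack1, 1 was higher in GMP than in CMP with TMM (background 13.6%), Rpl36al at 0.54 (adjusted p = 0.0196), and 0 passed with total UMIs (adjusted p = 0.159 for Rpl36al) or the pool (adjusted p = 0.104). Against LMPP, 3 were higher and 0 lower with TMM (background 26.0% higher and 31.4% lower), whereas 0 were higher and 1 lower with total UMIs and likewise with the pool. Of 20 translation factors with terminal oligopyrimidine mRNAs, 2 were higher against CMP (Eif3k 0.52, adjusted p = 0.0343, and Eef1d 0.47, adjusted p = 0.0484) and 1 lower (Eef2, the elongation factor that drives translocation, −0.63, adjusted p = 0.0122) with TMM, beside 13.6% higher and 19.0% lower of all genes. With total UMIs 0 were higher and 2 lower (background 7.46% and 30.3%), and with the pool 0 and 1 (background 7.13% and 24.9%). Eif3k then had adjusted p = 0.221 with total UMIs and 0.12 with the pool, and Eef1d 0.343 and 0.211. Against LMPP 10 were higher and 0 lower with TMM (background 26.0% and 31.4%), 4 and 4 with total UMIs (background 11.1% and 52.1%), and 4 and 3 with the pool (background 10.0% and 51.0%). This list also set GMP replicate 1 apart: its sum was 16129 CPM in replicate 1, 21264 and 22736 in replicates 2 and 3, 22631 in CMP and 20819 in LMPP. Eef1a1, which carries aminoacyl-tRNA to the ribosome, had 2511 CPM in replicate 1 and 4283 and 5319 in the other GMP libraries, against 5908 in CMP.

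Of 8 p53 target genes other than Rps27l, 1 was higher and 4 lower in GMP than in CMP with TMM (background 13.6% and 19.0%), 0 and 5 with total UMIs (background 7.46% and 30.3%), and 0 and 4 with the pool (background 7.13% and 24.9%). Cdkn1a, the cell cycle inhibitor p21, had 39.9, 22.6 and 25.0 CPM in GMP, 194 in CMP and 48.2 in LMPP, with a difference of −2.42 from CMP (adjusted p = 0.000602). Phlda3, a p53-induced Akt repressor, was lower by −2.19. Bax, a pro-apoptotic gene, had 162, 156 and 145 CPM in GMP, 126 in CMP and 93.0 in LMPP, with a difference of 0.60 from CMP (adjusted p = 0.0153) that did not pass with total UMIs (adjusted p = 0.105). Against LMPP 1 was higher, Bax at 1.35 (adjusted p = 0.000242), and 3 lower with TMM (background 26.0% and 31.4%), while 1 and 5 passed with total UMIs and with the pool. In basophil and mast cell-like cells, where Rps27l was lower than in granulo-monocytic-like cells, genes of this list went both ways. Cdkn1a was at 2.35, Bax at −0.37 (adjusted p = 2.82e-07) and Ccng1 at 0.10 (adjusted p = 0.613). A link of the list to Rps27l was not tested. Of 22 genes of the S and G2M phases, which summed to 2676 ± 141 CPM in GMP, 2684 in CMP and 3085 in LMPP, 9 were higher and 0 lower against CMP with TMM (background 13.6% and 19.0%), 3 and 2 with total UMIs (background 7.46% and 30.3%), and 2 and 0 with the pool (background 7.13% and 24.9%).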

How the data were processed

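The submitters' processing notes name the mm10 genome, Cell Ranger 3.1.0 and Seurat 3.1.1. Per the file headers, Cell Ranger 6.1.1 wrote the matrices, whose deposited values are UMI counts for every gene in every barcode. How the authors kept barcodes is not given in the sources used here. Whether reads shared between genes were dropped is not given either.

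Barcodes with under 500 genes, under 1000 UMIs or over 10% mitochondrial UMIs, and doublets called from simulated doublets, were removed. Sums per library entered a quasi-likelihood fit in edgeR 4.0.16 (R 4.3.3, limma 3.58.1) with TMM, filterByExpr and a prior count of 2. UMIs were split at random in 2 parts within cells. Cells of each sorted group were clustered on one part (Leiden, resolution 1, leidenalg 0.10.2, 2000 variable genes without the members and their pseudogenes, centred within library), and classes of at least 100 cells in each GMP library were tested on the other part with library as a block. Clusters were named from marker lists, by conditions partly set after the clusters were seen. On simulated data, of 200 genes changed 2-fold, the fit recovered 57% in the contrast of GMP with CMP (18851 genes) and 84% in the monocyte-like contrast (13236 genes).

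Genes were named by a rule: members past the threshold, paralog pairs, the 5 most abundant, and those farthest from the member median. The 52 members past the threshold against LMPP are given by counts, and those holding under 3 scalings are named. Some genes within this rule are left unreported. The members and lists were chosen with earlier results of these data known. Alternatives were other scalings, DESeq2, no low-count filter, all barcodes, doublets kept, fewer groups in the fit, other clusterings, undivided counts, no library block and each GMP replicate left out. Of the members, 27 overlap a same-strand gene and 63 share a stretch of 90 bases near the 3′ end with another transcript, so their counts are less certain. Protein features were not analysed here. The p-values of GMP against CMP or LMPP measure the spread between 3 GMP libraries. Those of the class contrasts refer to the spread of class differences over the same 3 libraries, once the library block is taken out. In both fits edgeR draws the spread of each gene towards a value shared over genes. The very small p-values of the class contrasts therefore do not measure a gene's own spread over 3 libraries alone. Python 3.11.15, numpy 2.4.6, scipy 1.17.1, pandas 2.3.3 and DESeq2 1.42.0 (alternatives) were also used.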

Additional observations from a re-analysis of the deposited data

Results flagged for a closer look

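UMIs also fell on features outside the members. Of 300 features whose symbols name them as ribosomal protein pseudogenes, 255 had at least 1 UMI and together held 547179, which is 0.309 per 100 member UMIs. Pseudogenes with other symbols are not counted among them. Their summed level was 1072, 980 and 962 CPM in GMP, 1059 in CMP and 800 in LMPP, and Rpl10a-ps1 held 13.7% of it. They are listed because they show signal where no member is counted.

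Genes with a member-like symbol under the minimum of 1000 UMIs also held UMIs. Rpl3l, the muscle paralog of Rpl3, had 358 UMIs, at 0.456, 0.288 and 0.483 CPM in GMP, 1.27 in CMP and 0.954 in LMPP. Rps12l1 had 181. Rpl39l, a paralog of Rpl39, had 66, of which 0, 0 and 27 lay in GMP replicates 1, 2 and 3, 3 in CMP and 28 in LMPP. Their source was not tested. Groups of 3 libraries are too small for a test of single outlying libraries.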

How the results depend on the processing

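Of 139 counts and shares recomputed, 109 stayed within 1.5 times the value given or within 1 SD, and 30 moved. Members higher in GMP than in CMP numbered 2 with total UMIs, 5 with the pool and 18 with the DESeq2 Wald test. With 1 GMP replicate left out, 4 to 19 were higher. These were 4 of 85 without replicate 2 (background 10.6%) and 19 without replicate 1 (background 21.7%). Members lower numbered 11 and 7 with total UMIs and the pool. Against LMPP, 10 were higher with total UMIs and 10 with the pool, and 14 and 16 were lower. With 1 replicate left out, 22 to 59 were higher. These were 22 of 85 without replicate 2 (background 22.4%) and 59 without replicate 1 (background 31.3%). Backgrounds with total UMIs and the pool are given above. For the other settings of this paragraph none is given, so their counts are not set against one. In monocyte-like cells 4 were higher with total UMIs and 4 with the pool. There, 3 and 2 were lower with these scalings, 2 at Leiden resolution 2, 12 with undivided counts, 10 to 41 with 1 replicate left out and 0 with no replicate block. In basophil and mast cell-like cells 10 and 23 were higher and 41 and 24 lower. In eosinophil-like cells 1 and 21 were higher, and 27 were lower with the pool. The eosinophil-like share was 21.5% at resolution 2 and 25.7% with undivided counts. No eosinophil-like contrast was possible at resolution 2, for want of cells. With no replicate block 57 members were lower in basophil and mast cell-like and 78 in eosinophil-like cells. No paired analysis was possible between sorted groups because only GMP has more than 1 library. The cause of these changes was not tested beyond the scaling itself.

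These log2 differences changed sign. Against CMP the pool and total UMIs gave −0.10 and −0.16 for Rpl7, −0.071 and −0.12 for Rps4x, −0.071 and −0.13 for Rpl22l1, −0.0065 and −0.054 for Rps20, −0.016 and −0.066 for Rpl22, and total UMIs −0.011 for Rpl32. Against LMPP they gave −0.13 and −0.11 for Rpl7, −0.19 and −0.16 for Rps4x, −0.47 and −0.45 for Rpl22l1, −0.21 and −0.18 for Rps27, −0.066 and −0.039 for Rps20, and −0.60 and −0.57 for Rpl27, while with 1 GMP replicate left out Rps4l ran from −0.29 to 0.20 and Rpl27 from −0.047 to 0.12, both turned by replicate 1. In monocyte-like cells Rplp0 was at −0.019 at resolution 0.5 and Rpl6l at −0.011 with undivided counts. In basophil and mast cell-like cells Rpl6l was at 0.40 with the pool and 0.31 with total UMIs, and Rps3a2 at −0.052 with no filter and −0.14 with undivided counts. With 1 replicate left out Rpl6l ran from −0.091 to 0.11, Rpl32l from −0.10 to 0.997 and Rps3a2 from −0.070 to 0.27. In eosinophil-like cells the pool and total UMIs gave 0.57 and 0.30 for Rps9 and 0.36 and 0.10 for Rps3a2, which ran from −1.31 to 0.26 with 1 replicate left out.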
